A study of Mus musculus with 5 samples.

Results

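Skin that had been brushed 7 d earlier, with no liquid applied, was compared with naive skin. The brushed group held 8 mice and the naive group 9, together 17 of the 153 mice in the table, and both were picked by their group labels alone. All were female SKH-1 hairless mice, 7 to 8 weeks old, and RNA came from biopsies of the upper back. In the brushed mice the back had been scratched with a sterile metal brush, without the phosphate-buffered saline (PBS) or the particles that other groups received. The naive mice are labelled naive for both treatment and time, and how they were handled is not described in the sources used here. The series' design text speaks of 6 sequenced mice out of 8 in each group, whereas the table holds 8 brushed and 9 naive mice. The table holds 19 groups in all, at 24 h and 7 d, with and without brushing, PBS and particles. The mice were housed in cages, the cage is not in the labels, and each mouse was treated as an independent sample. Libraries were sequenced in 5 pools. Brushed mice 1, 2, 6, 7 and 8 were in pool 4 and brushed mice 3, 4 and 5 in pool 5, against naive mice 1 to 4 in pool 1, naive mice 5 to 8 in pool 2 and naive mouse 9 in pool 5. Only 1 naive mouse therefore shared a pool with the brushed group, and pool and brushing cannot be told apart for nearly all of the comparison.

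A superficial skin wound passes through inflammation, regrowth of the epidermis and rebuilding of the dermal matrix. Neutrophils and monocytes enter from blood, monocytes becoming macrophages, and chemokines such as Ccl2 guide them by receptors such as Ccr2. Keratinocytes of injured skin release cytokines of the interleukin 1 family, and fibroblasts lay down collagen and remodel it with metalloproteinases. Skin also runs a circadian clock, in which Arntl (Bmal1) drives transcription of Per genes and of the PAR bZIP factors Dbp, Tef and Hlf, so that transcript levels of these genes depend on the hour. The hour of biopsy is not given in the sources used here. These are bulk samples, in which fewer cells of a type and less RNA per cell cannot be told apart.

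Each library is a count of unique molecular identifiers (UMI) per gene, read from the 3′ end. Totals spanned 613961 to 1461218 UMI in the brushed mice and 859464 to 1595381 UMI in the naive mice (two-sided exact permutation test over 24310 splits, p = 0.473). RNA integrity numbers were 8.3 to 9.8 (median 8.5) in brushed and 7.7 to 8.8 (median 8.2) in naive mice (exact permutation p = 0.0196, Benjamini-Hochberg adjusted over 6 measures 0.114). Mitochondrially encoded transcripts made up 0.560% to 0.905% of UMI in brushed and 0.666% to 0.941% in naive mice (exact permutation p = 0.0380, adjusted 0.114). The part of these differences in the results was not tested. None of 136 pairs of libraries held identical counts. The labelled tissue carried its markers: the keratins Krt5, Krt14, Krt1 and Krt10 of keratinocytes and the fibroblast genes Col1a1, Col1a2, Dcn and Lum were all well detected in both groups, and none of these 8 genes passed the test. Levels are given in CPM, UMI of a gene scaled to a common library size.

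A gene entered the test when its count exceeded 5 UMI in 75% or more of the brushed mice or of the naive mice, and was called changed at an edgeR quasi-likelihood adjusted p under 0.05 with a log2 fold change of at least 0.33 in size. Of 11423 genes tested, 141 (1.23%) were called, 81 higher (0.709%) and 60 lower (0.525%) in brushed skin, and 1667 genes had an unadjusted p under 0.05. In 23 genes (0.201%) the values of the groups did not overlap, and 22 of these were called. They included Serpinb12, Il36a, Ccr2, Meg3 and Leo1, higher in brushed skin, and Dbp, Per3, Tef and Hlf, lower. With levels rescaled over all mice, naive skin had the lowest mean of all groups, intact ones included, for Il36a, Ccr2, Meg3 and Leo1. Leo1 means were 41.8 CPM in intact skin with PBS at 7 d, 51.9 CPM in the brushed group and 29.8 CPM in naive skin. For Ccr2 they were 132, 186 and 100 CPM and for Il36a 84.8, 137 and 62.2 CPM. For Meg3 and Serpinb12 the brushed group had the highest mean of all groups. The number of calls moved strongly with single mice, between 41 and 269 when each was left out in turn. It fell to 41, 54, 62, 65 and 71 without brushed mouse 8, 1, 2, 4 or 6 and to 60, 64, 68, 76, 81 and 86 without naive mouse 8, 4, 9, 7, 1 or 6. It was 221 and 216 without brushed mouse 5 or 7 and 269 without naive mouse 5. With pool as a covariate, which leaves the contrast to the 3 brushed mice and 1 naive mouse of pool 5, no gene was called by edgeR. Without naive mouse 9 the brushed mice were set against 8 naive mice of other pools only, and 68 of 11532 genes (0.59%) were called.

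Most of the called genes of the circadian clock were lower in brushed skin. Of 15 clock genes tested, 6 were lower and 2 higher in brushed skin, and the list had a median log2 difference of -0.57, beside 0.00087 over all genes tested. All 3 PAR bZIP factors fell. Dbp, which carries clock timing to output genes, ranged over 13.2, 18.8 and 34.7 CPM (lowest, median, highest) in brushed mice, against 64.9, 92.0 and 129 CPM in naive mice. Every brushed mouse lay below every naive mouse, a log2 difference of -2.05 ± 0.19 (SE; edgeR adjusted p = 1.04e-06). Tef ran from 15.5 through a median of 21.1 to 38.3 CPM in brushed and from 40.3 through 55.4 to 80.5 CPM in naive mice, again with no overlap (-1.24 ± 0.18, adjusted p = 0.000473). Hlf spanned 14.9 to 35.4 CPM (median 25.3) in brushed and 38.3 to 70.9 CPM (median 49.3) in naive mice (-1.12 ± 0.15, adjusted p = 0.000349). Hlf too separated the groups.

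Per3, a period gene of the clock's repressor arm, had a lowest, median and highest value of 3.31, 10.8 and 14.8 CPM in brushed mice and of 21.0, 34.1 and 51.6 CPM in naive mice, and the groups did not overlap (-1.77 ± 0.23, adjusted p = 0.000153). The highest naive value belonged to mouse 9, the naive mouse that shared pool 5. The nuclear receptors Nr1d1 and Nr1d2, which repress Arntl, were also lower. Nr1d1 stood at 7.46 to 18.5 CPM (median 14.1) in brushed and 14.6 to 36.8 CPM (median 24.5) in naive mice (-0.93 ± 0.21, adjusted p = 0.0319). Nr1d2 differed by -0.79 ± 0.16 (adjusted p = 0.0121). Arntl itself went the other way, 19.6 to 38.6 CPM in brushed and 10.8 to 23.4 CPM in naive mice (0.77 ± 0.18, adjusted p = 0.0343). Nfil3, which represses from the same DNA element that the PAR bZIP factors activate, was higher by 0.90 ± 0.22 (adjusted p = 0.0449). Nr1d2, Arntl and Nfil3 were named after their values were seen. Klf9, a clock-linked and glucocorticoid-induced factor, fell by 0.72 on the log2 scale (adjusted p = 0.0342), and it was the single call among 14 glucocorticoid-induced genes. When each mouse was left out in turn, Dbp, Per3, Tef, Hlf and Nr1d2 stayed called in all 17 fits, whereas Nr1d1 lost its call in 5, Arntl in 7, Klf9 in 9 and Nfil3 in 11. The separation in single mice is plain in the plot of clock genes.

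**Figure D1:**
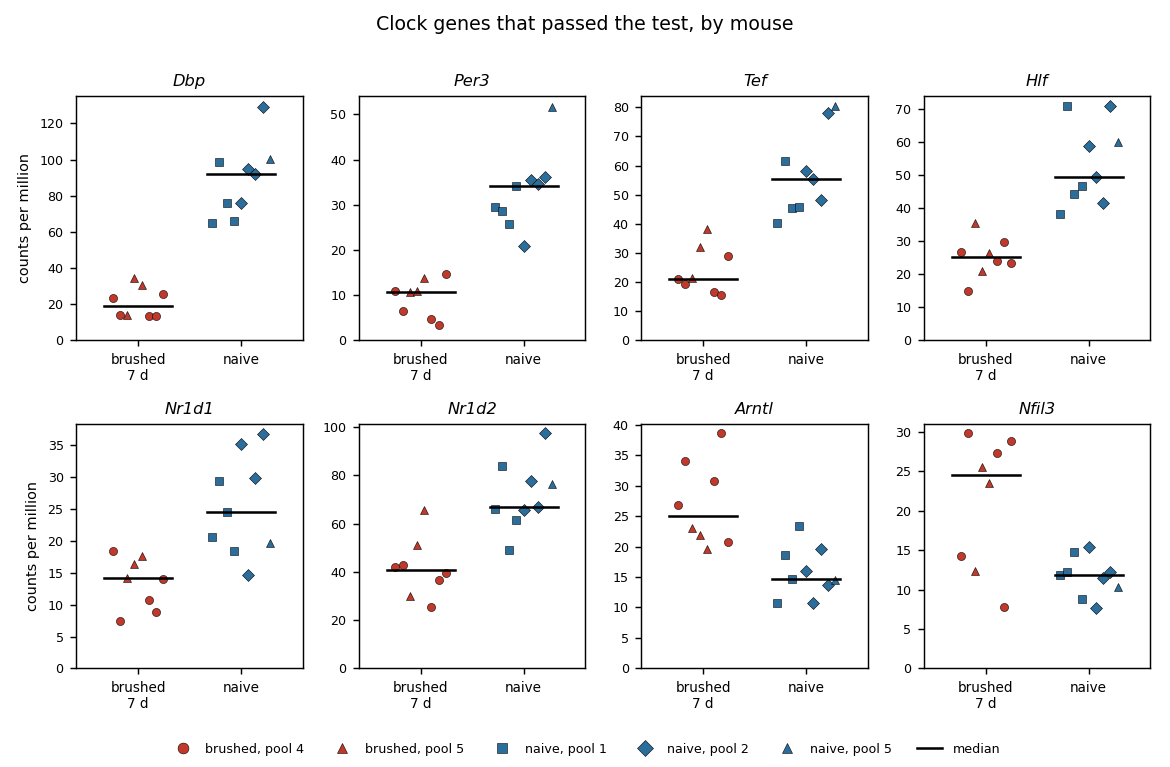
Normalised counts (CPM) of the 8 called clock genes, 1 point per mouse, brushed mice left and naive mice right, with marker shape giving the sequencing pool and the bar the group median. Dbp, Per3, Tef and Hlf show no overlap between the groups, and in these 4 genes the naive mouse of pool 5 lies above every brushed mouse.

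The clock genes were set against the rest of the series, with levels rescaled over all 153 mice. Naive skin had the highest mean of all 19 groups for Dbp, Per3, Tef and Hlf. The Dbp mean was 21.0 ± 8.54 CPM in the 7 d brushed mice (SD, n = 8) and 88.2 ± 20.3 CPM in naive mice (SD, n = 9). In the 6 other groups of pools 4 and 5 its means lay between 12.5 and 56.3 CPM, and in the 11 other groups of pools 1 to 3 between 8.77 and 66.4 CPM. Intact skin given PBS 7 d before had a mean of 10.9 CPM, although its mice were in pools 1 and 3. For Per3 the means were 9.37 CPM in the brushed group, 6.86 CPM in that intact PBS group and 32.8 CPM in naive skin. Low means of Dbp and Per3 were found in intact skin too.

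Short stretches of the promoters are shown for Per3 and Tef because they hold the DNA elements through which Dbp, Tef, Hlf and Nfil3 (the D-box) or Arntl (the E-box) are known to act. They were read from GRCm39 with Gencode gene models, in windows of 250 bases before to 50 after the start site of each gene's Ensembl canonical transcript, on the gene's strand, with the motif in capitals.
Per3 D-box, chr4:151129308-151129337, minus strand: gacccgcgcgTTATGTAAggtactcggggg
Per3 D-box, chr4:151129261-151129290, minus strand: ccgcccgcggTTATGTAAcccccgccgtgc
Tef E-box, chr15:81695467-81695496, plus strand: cctggcccagCACGTGtctacatcgtttgg
The D-box was searched as TTATGTAA and the E-box as CACGTG, both on either strand. The D-box was in 0.93% of 21722 windows of protein-coding genes and in 1 of the 8 called clock genes, and the E-box in 7.82% of windows and in 1 of the 8. Per3 lies at chr4:151081373-151129140 and Tef at chr15:81686622-81711064. The start sites used were base 151129140 for Per3 and base 81695615 for Tef, which is inside the gene span, whose first base belongs to another transcript.

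Genes induced by interferon were higher in brushed skin. Of 22 tested, 7 rose and none fell, 21 had a positive difference, and the list's median log2 difference was 0.99. Cxcl10, a chemokine that draws in activated T cells, showed 17.7, 39.0 and 69.7 CPM (lowest, median, highest) in brushed mice and 0.770, 4.33 and 46.9 CPM in naive mice (1.82 ± 0.45, adjusted p = 0.0450). The highest naive value was that of mouse 5, and the next, 18.6 CPM, was just above the lowest brushed value. Without mouse 5 the log2 difference was 2.72. Cxcl9, its neighbour on chromosome 5 with the same receptor, showed 9.82, 34.9 and 75.7 CPM in brushed and 0.983, 9.20 and 27.9 CPM in naive mice (1.63 ± 0.38, adjusted p = 0.0343). Cxcl9 was counted with the chemokines, and Cxcl10 with both lists.

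Several interferon-induced guanylate-binding and GTPase genes, which act in defence inside cells, moved the same way. Gbp2 ranged from 51.1 through 60.4 to 109 CPM in brushed and from 29.9 through 38.3 to 56.6 CPM in naive mice (0.75 ± 0.15, adjusted p = 0.0121), with 7 of 8 brushed mice above every naive mouse. Ifi47 rose by 1.02 ± 0.19 (adjusted p = 0.00623) and Gbp3 by 0.95 ± 0.22 (adjusted p = 0.0311). Iigp1, outside the list, stood at 49.1 to 130 CPM (median 67.8) in brushed and 12.4 to 51.5 CPM (median 29.5) in naive mice, with 7 of 8 brushed mice above every naive mouse (1.34 ± 0.21, adjusted p = 0.00166). Gbp2b, also outside it, rose by 1.73 ± 0.33 (adjusted p = 0.00959). Gbp2b met the count filter only in the brushed group, where it was high. Reads of near-identical Gbp and Ifit family members may be split or shared in counting, so the member is less certain than the family. Ifit2 (1.47 ± 0.37, adjusted p = 0.0481) and Cmpk2 (1.35 ± 0.29, adjusted p = 0.0215) were among the largest rises. Ifit1 (1.18, adjusted p = 0.0401) and Rtp4 (1.04, adjusted p = 0.0469) were named after their values were seen. Gbp2, Ifi47 and Iigp1 stayed called whichever mouse was left out. Gbp2b stayed called in the 11 of 17 such fits in which it passed the count filter and was tested. Cxcl10, Cxcl9 and Ifit1 lost the call in 11 of 17 such fits, Ifit2 and Rtp4 in 12, Gbp3 in 9 and Cmpk2 in 1. These genes were not low in all intact skin either: intact skin with PBS at 7 d had a mean of 70.5 CPM for Iigp1 and 81.4 CPM for Rtp4, against 80.2 and 81.5 CPM in the brushed group.

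The interferon-stimulated response element, through which STAT and IRF factors act, was searched as its core, GAAA then any 2 bases then GAAA, on both strands of the same windows. It was in 5 of the 7 called interferon genes (71.4%) and in 3.84% of the 21722 windows. The list was made of genes known to be induced by interferon, and its uncalled members were not counted apart. The share therefore describes the list and not the calls. For each of the genes with a match before the start site 1 match is shown. Where the motif lies on the opposite strand the capitals are its reverse complement.
Cxcl10, chr5:92496942-92496971, minus strand: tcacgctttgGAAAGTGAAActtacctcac
Ifit1, chr19:34618175-34618204, plus strand: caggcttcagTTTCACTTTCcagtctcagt
Rtp4, chr16:23428585-23428614, plus strand: gtgcaccttgGAAACCGAAActtaaagaca
Ifi47, chr11:48977746-48977775, plus strand: ttaaagtcctTTTCTTTTTCctggaaatgt
The core starts 213 bases before the start site in Cxcl10 (base 92496748), 86 in Ifit1 (base 34618271), 51 in Rtp4 (base 23428646) and 105 in Ifi47 (base 48977861). In Rtp4 and Ifi47 this canonical start lies inside the annotated gene span, which begins earlier with other transcripts. A match describes these letters and is not a measured binding site.

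The monocyte receptor Ccr2 and the chemokines that recruit monocytes were higher. Ccr2, the receptor for Ccl2 and Ccl7 on monocytes, showed 161, 179 and 247 CPM (lowest, median, highest) in brushed mice and 69.1, 106 and 118 CPM in naive mice. The groups did not overlap (0.90 ± 0.11, adjusted p = 8.14e-05), and leaving out any mouse kept the call. The call was lost in 9 of 17 such fits for Ccl2, in 8 for Ms4a4c and in 1 for Ccl7. Ccl2 stood at 85.0 to 313 CPM (median 172) in brushed and 52.6 to 114 CPM (median 94.3) in naive mice (0.94 ± 0.22, adjusted p = 0.0343). Ccl7 stood at 155 to 470 CPM (median 269) in brushed and 85.9 to 213 CPM (median 135) in naive mice (1.05 ± 0.22, adjusted p = 0.0195). In each of these chemokines 5 brushed mice lay above every naive mouse. Means of the brushed, intact PBS (7 d) and naive groups, rescaled over all mice, were 172, 142 and 90.4 CPM for Ccl2. For Ccl7 they were 291, 221 and 142 CPM. Ccl2, Ccl7, Cxcl9 and Cxcl10 were the 4 calls among 26 chemokines, of which 14 had a positive difference (median 0.07). Of 22 monocyte and macrophage genes, 20 had a positive difference (median 0.17) and 2 were called, Ccr2 and Ms4a4c (1.19 ± 0.27, adjusted p = 0.0300), which is one of a family of close copies. No gene was called among 10 of neutrophils, 13 of T cells, 14 of mast cells or 12 of dendritic and Langerhans cells.

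Lyve1 and Cd163, markers of resident dermal macrophages, were lower. Lyve1, a hyaluronan receptor of lymphatic vessels and of a perivascular macrophage population, had 7.09, 13.8 and 27.5 CPM (lowest, median, highest) in brushed and 24.5, 38.7 and 66.2 CPM in naive mice. In 7 of 8 brushed mice it was below every naive mouse (-1.41 ± 0.21, adjusted p = 0.00069). Cd163, the haemoglobin scavenger receptor of macrophages, had 17.7 to 28.5 CPM (median 22.1) in brushed and 18.5 to 67.9 CPM (median 40.1) in naive mice (-0.75 ± 0.19, adjusted p = 0.0496). Its call was lost in 14 of the 17 fits that left out a mouse, whereas Lyve1 kept it in all. Of the 16 genes of the list, 14 had a negative difference (median -0.38) and these 2 were called. With levels rescaled over all mice, mean Cd163 was 22.5 CPM in the brushed group, 27.0 CPM in intact skin with PBS at 7 d and 39.3 CPM in naive skin.

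Among epidermal genes, the interleukin 36 cytokines Il36a and Il36g and the protease inhibitors Serpinb12 and Spink7 were higher. Il36a, a keratinocyte cytokine of the interleukin 1 family, ranged over 93.2, 134 and 193 CPM (lowest, median, highest) in brushed and 44.2, 67.9 and 79.7 CPM in naive mice. No brushed mouse fell within the naive range (1.12 ± 0.14, adjusted p = 0.000153). Il36g differed by 0.65 ± 0.16 (adjusted p = 0.0391), and the 2 were the calls among 15 genes of the family (11 positive, median 0.24). Leaving out a mouse lost the call of Il36g in 12 of 17 fits and that of Il36a in none. Serpinb12, an intracellular serine protease inhibitor of epithelia, stood at 65.5, 90.5 and 101 CPM in brushed and 17.3, 29.2 and 65.4 CPM in naive mice. The groups only just parted, at 65.5 in the lowest brushed mouse and 65.4 CPM in naive mouse 5 (1.37 ± 0.19, adjusted p = 0.000293). It was the single call among 33 protease inhibitors of the list, of which 24 had a positive difference. Spink7, a Kazal-type inhibitor of epithelia that was not on the list, had the largest rise of the named genes, with 1.10, 14.7 and 52.9 CPM in brushed and 0, 2.95 and 6.93 CPM in naive mice (2.80 ± 0.55, adjusted p = 0.0117). Spink7 met the count filter only in the brushed group, where it was high. Its spread among brushed mice was wide, and 6 of 8 lay above every naive mouse. Of 17 wound keratinocyte genes none was called (11 positive, median 0.15), nor was any of 30 genes of the cornified layer. Dst, which anchors basal keratinocytes to the basement membrane, was the single call among 10 basal keratinocyte genes (-0.43 ± 0.11, adjusted p = 0.0496), and it lost the call in 13 of 17 fits without a mouse.

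A few genes of dermal repair rose strongly, whereas the collagens as a group were not called. Cthrc1, a secreted protein of activated fibroblasts, had 60.7, 154 and 218 CPM (lowest, median, highest) in brushed and 18.4, 75.4 and 108 CPM in naive mice. In 6 of 8 brushed mice it was above every naive mouse (1.20 ± 0.24, adjusted p = 0.0123). Prss35, a secreted serine protease-like protein, had 4.42, 22.1 and 52.9 CPM in brushed and 2.45, 5.05 and 10.3 CPM in naive mice, with 7 of 8 brushed mice above the naive range (2.06 ± 0.37, adjusted p = 0.00494). Fbn2, a fibrillin of developing and healing elastic fibres, rose by 1.38 ± 0.28 (adjusted p = 0.0156). Prss35 and Fbn2 met the count filter only in the brushed group, where they were high. Mmp3, which degrades matrix proteins, stood at 116 to 416 CPM (median 173) in brushed and 73.6 to 155 CPM (median 117) in naive mice (0.81 ± 0.20, adjusted p = 0.0469), and Eln, elastin, rose by 0.55 ± 0.14 (adjusted p = 0.0470). Each of these last 2 calls was lost in 12 of 17 fits without a mouse, whereas Cthrc1, Prss35 and Fbn2 kept theirs in all. Of 19 wound matrix genes Cthrc1 and Eln were called, and of 16 metalloproteinases and inhibitors Mmp3. Of 23 collagens 20 had a positive difference (median 0.28) and none was called: Col5a1 differed by 0.54 (adjusted p = 0.0568) and Col3a1 by 0.34 (adjusted p = 0.0773).

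**Figure D2:**
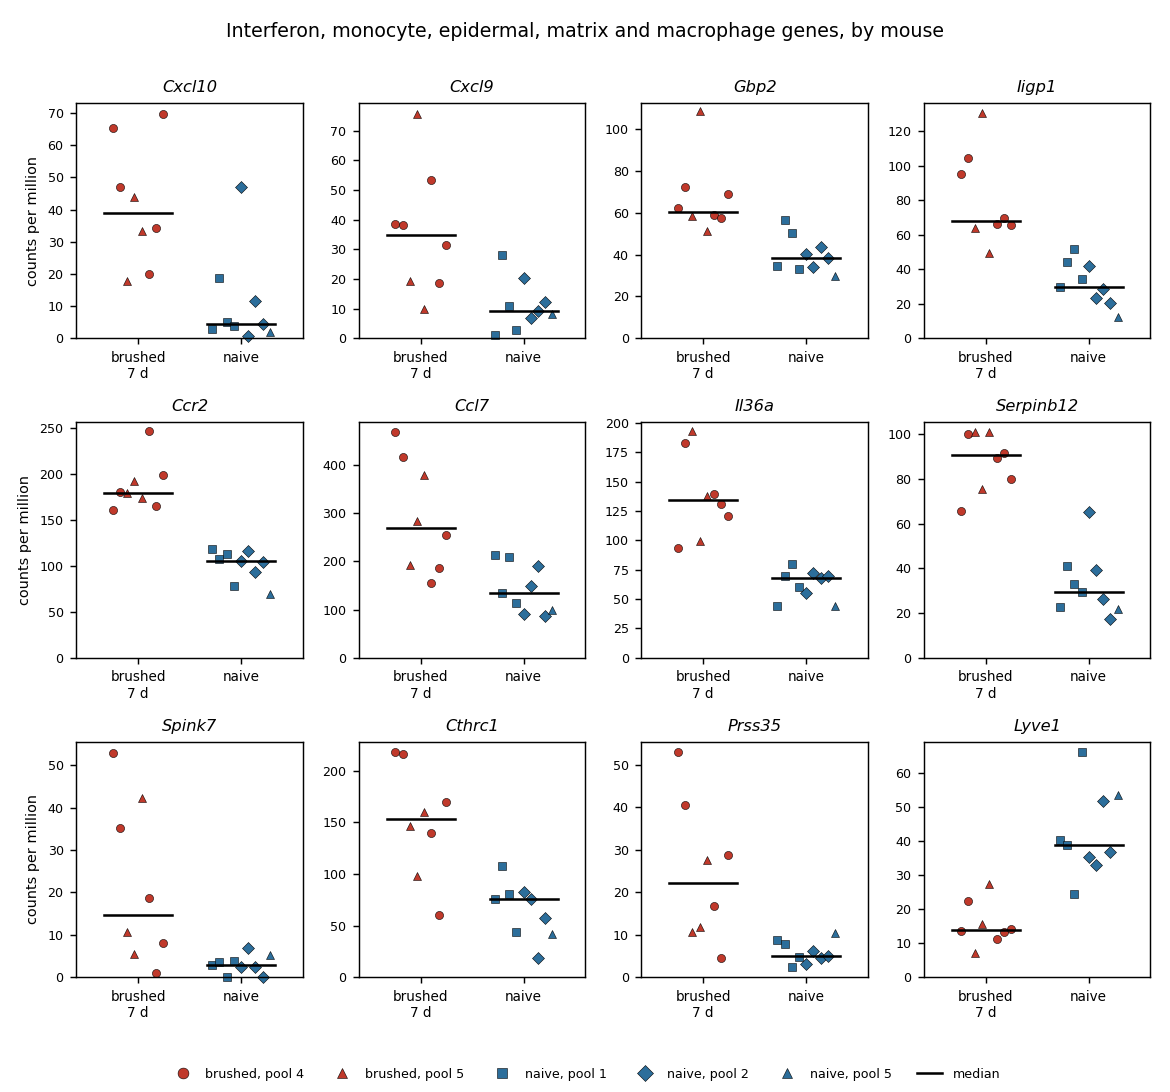
Normalised counts (CPM) per mouse of 12 genes of inflammation, epidermis and matrix, brushed mice left and naive mice right, with marker shape giving the pool and the bar the group median. Ccr2, Il36a and Serpinb12 show no overlap, and Lyve1 is the gene of this set that was lower in brushed skin.

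Other large rises were in genes with no list of their own. Meg3, an imprinted long non-coding RNA, had 25.4, 35.7 and 61.8 CPM (lowest, median, highest) in brushed and 7.36, 16.0 and 25.3 CPM in naive mice, with no overlap (1.30 ± 0.20, adjusted p = 0.00108). Klhl13, a ubiquitin ligase adaptor, rose by 1.23 ± 0.24 (adjusted p = 0.0100) and Pou2f2, a lymphoid transcription factor, by 1.21 ± 0.29 (adjusted p = 0.0382). Klhl13 was not low in all intact skin. Means of the brushed, intact PBS (7 d) and naive groups, rescaled over all mice, were 16.0, 15.1 and 6.97 CPM for Klhl13. For Pou2f2 they were 26.8, 13.2 and 11.7 CPM. Against intact skin with nZnO or nAg of the same pools, Klhl13 differed by 0.03 ± 0.18 (edgeR adjusted p = 0.945). Leo1, a subunit of the PAF1 transcription elongation complex named after its values were seen, stood at 42.5 to 56.7 CPM in brushed and 21.9 to 39.4 CPM in naive mice (0.80 ± 0.11, adjusted p = 0.000357). Pou2f2 lost its call in 10 of 17 fits without a mouse and the other 3 in none.

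The largest fall was in Baiap2l1, which links membrane to actin, but its naive values came in separate levels. Brushed mice had 5.87, 7.56 and 12.1 CPM (lowest, median, highest), against 6.19, 85.2 and 113 CPM in naive mice (-2.89 ± 0.50, adjusted p = 0.0034). Naive mice 6, 8 and 9 stood at 7.70, 10.8 and 6.19 CPM, inside the brushed range, and the other 6 naive mice at 82.4 CPM or more. The same levels were found across the series. Of all 153 mice, 48 had more than 50 CPM of Baiap2l1, 104 less than 25 CPM and 1 lay between, limits that were chosen after the values were seen. Each of the 17 other groups held at least 1 mouse above 50 CPM, the brushed group here none of 8 and the naive group 6 of 9. Under the pool covariate its log2 difference turned to 0.21. Further falls were in Gm49839 (-1.84), Prkg2 (-1.31), Trarg1 (-1.23), Sult5a1 (-1.07), Gm14586 (-0.98), the pseudogene Tpt1-ps3 (-0.85), Fam81a (-0.83) and Dpysl2 (-0.83), with edgeR adjusted p between 0.0082 and 0.0463. Leaving out a mouse lost the call of Trarg1 in 11 of 17 fits, of Gm49839, Prkg2 and Dpysl2 in 10 each, of Tpt1-ps3 in 9, of Sult5a1 in 4, of Fam81a in 1 and of Gm14586 in none. Tpt1-ps3 may share reads with its parent gene. Gm49839 and Prkg2 met the count filter only in the naive group, where they were higher. Means of the brushed, intact PBS (7 d) and naive groups, rescaled over all mice, were 5.62, 5.47 and 20.4 CPM for Gm49839. They were 5.81, 6.12 and 14.0 CPM for Prkg2 and 54.6, 51.1 and 94.3 CPM for Dpysl2. For Trarg1, Sult5a1, Gm14586, Tpt1-ps3 and Fam81a the intact PBS mean lay between the brushed and naive means.

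Groups of genes that the test did not call still leaned in places. Of 77 ribosomal protein genes 10 had a positive difference (median -0.15), of 37 nuclear-encoded complex I genes 3 (median -0.10) and of 38 genes of complexes II to V 3 (median -0.12). None of the 7 mitochondrially encoded genes tested was positive (median -0.28), which is the same measure as the lower mitochondrial share given for these libraries. The 18 skeletal muscle genes were all negative (median -1.01) with none called. Their summed level ran from 799 through 2052 to 10429 CPM in brushed and from 332 through 2364 to 19583 CPM in naive mice, so muscle RNA varied widely within both groups. Cebpb, Rab5if and the complex I genes Ndufb5, Ndufb8 and Ndufb9 are reported by the study as differentially expressed in another pair of groups at 7 d. That pair was brushed and intact skin that both had PBS, and the study tested it with DESeq2 and its own filter. Between brushed skin without PBS and naive skin the log2 differences of these genes were -0.12, -0.17, -0.21, -0.16 and -0.24. Their edgeR adjusted p ran from 0.261 to 0.824, and none was called. In the pair with PBS, fitted here with edgeR instead, 0 of 11800 genes were called. Cebpb differed there by -0.72 ± 0.18 and Ndufb5 by -0.45 ± 0.12 (adjusted p = 0.213 and 0.216). Rab5if, Ndufb8 and Ndufb9 differed by -0.37, -0.34 and -0.37 (adjusted p = 0.176, 0.237 and 0.221).

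**Figure D3:**
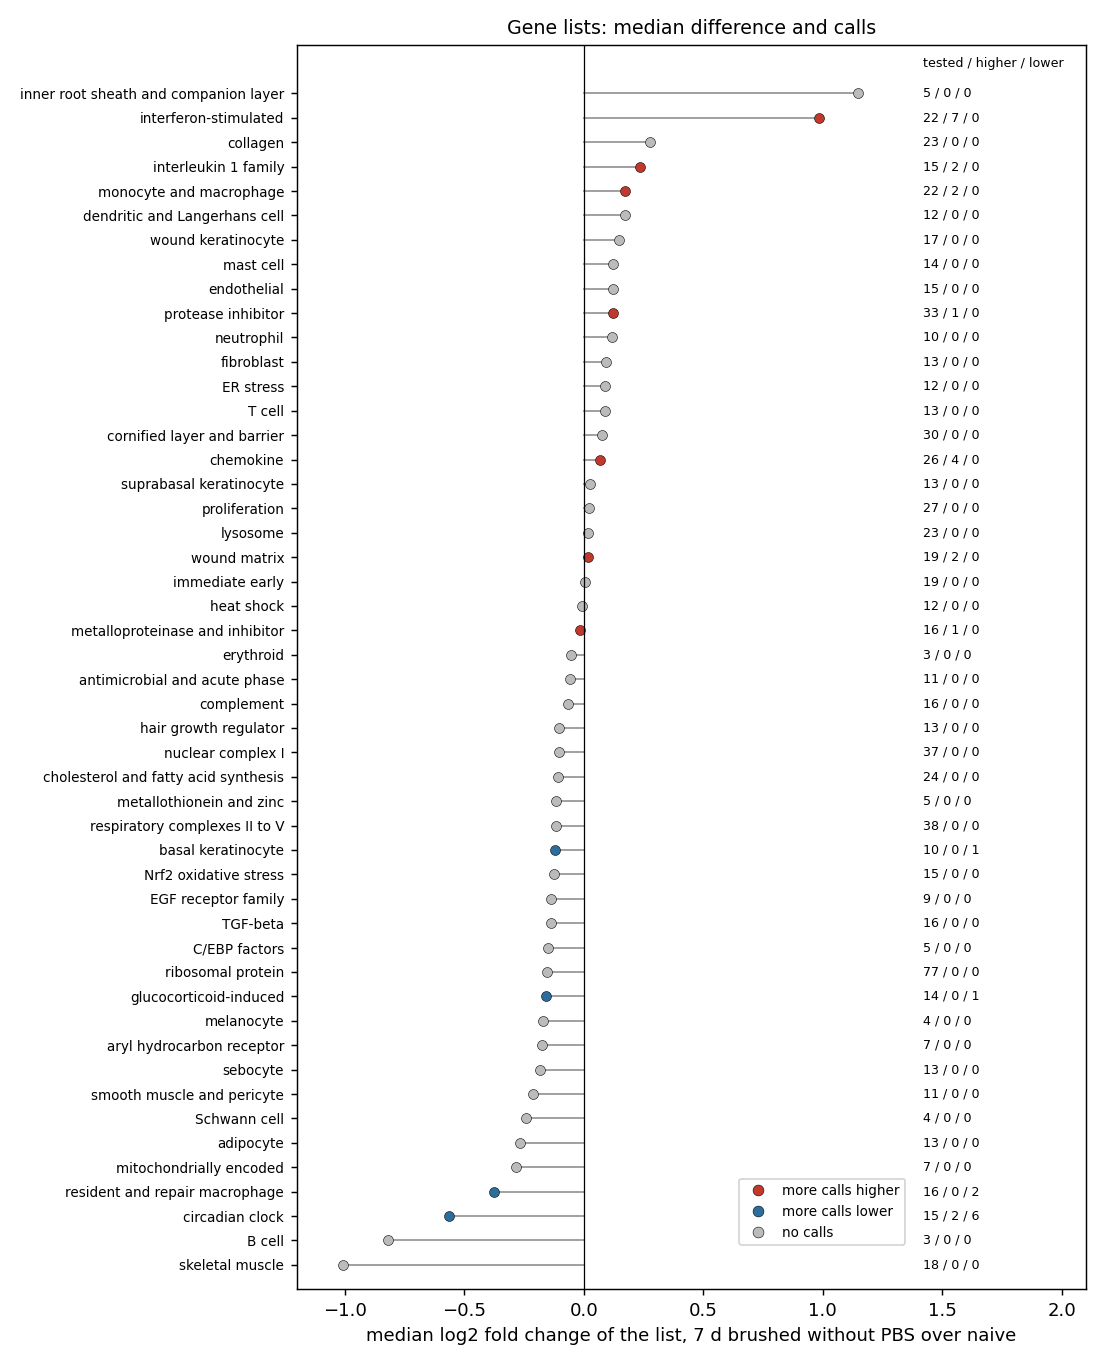
Median log2 difference between brushed and naive skin for each gene list with at least 3 tested genes, with the number tested and the numbers called higher and lower beside each bar. The interferon-stimulated list has a median of 0.99 with 7 of 22 genes higher and the clock list -0.57 with 6 of 15 lower.

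To see how the skin differed from an earlier stage, the 7 d brushed mice were set against 8 mice brushed 24 h before, also without PBS. The 24 h mice were in pools 2 and 3, so that time and pool cannot be told apart here. Of 11633 genes, 171 (1.47%) were called, 78 higher and 93 lower at 7 d. Lcn2, Krt6b, Mmp8 and Epgn were lower at 7 d and are named after their values were seen. Lcn2, a neutrophil and keratinocyte antimicrobial protein, had 21.5 to 55.1 CPM (median 34.1) at 7 d and 44.2 to 327 CPM (median 147) at 24 h (-2.11 ± 0.35, adjusted p = 0.00568). Krt6b, a keratin of activated epidermis, differed by -1.88 (adjusted p = 0.0323), Mmp8 of neutrophils by -1.96 (adjusted p = 0.0471), and the epidermal growth factor ligand Epgn by -1.28 (adjusted p = 0.0286). Of 13 neutrophil genes 3 were lower and 12 negative (median -0.71), of 17 wound keratinocyte genes 2 were lower (median -0.77), and of 35 protease inhibitors 8 were lower and 1 higher.

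Several collagens were higher at 7 d than at 24 h, and the wound matrix list was mixed. Of 23 collagens 6 rose, 18 were positive and the median was 0.49, with Col1a2 at 1941 to 2728 CPM at 7 d and 1159 to 1807 CPM at 24 h (0.61 ± 0.11, adjusted p = 0.00906). Cthrc1 had a median of 152 CPM at 7 d and 51.1 CPM at 24 h (1.56 ± 0.24, adjusted p = 0.00396). The Prss35 median was 21.9 CPM at 7 d and 2.41 CPM at 24 h (2.80 ± 0.43, adjusted p = 0.00396). Prss35 met the count filter only in the 7 d mice, where it was high. Of 19 wound matrix genes 2 were higher and 2 lower, 8 were positive and the median was -0.05. Cxcl9 (1.97 ± 0.39, adjusted p = 0.0133) and Iigp1 (0.95 ± 0.20, adjusted p = 0.0194) were higher at 7 d. The log2 differences of Ccr2 (-0.01 ± 0.15), Ccl2 (-0.01 ± 0.26), Cxcl10 (-0.22 ± 0.47) and Spink7 (0.16 ± 0.43) were smaller than or close to their errors and were not called. Dbp was lower at 7 d (-0.97 ± 0.21, adjusted p = 0.0202). Against naive skin the 24 h mice differed in Dbp by -1.08 ± 0.15 and the 7 d mice by -2.05 ± 0.19, 2 values that share the naive mice.

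Mice brushed 7 d before and given PBS were in the same pools, 5 in pool 4 and 3 in pool 5. Against them the group without PBS had 0 of 11841 genes called by edgeR (0%), 611 with an unadjusted p under 0.05, and 2 called by DESeq2. Of the 8 clock genes called against naive skin, Dbp differed by 0.06 ± 0.25, Per3 by -0.00 ± 0.33, Tef by -0.05 ± 0.28 and Arntl, which was furthest from 0, by -0.39 ± 0.17 (adjusted p = 0.948). Ccr2 differed by 0.38 ± 0.10 and Lyve1 by -0.68 ± 0.21, with edgeR adjusted p of 0.819 and 0.948.

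The difference between brushed and intact skin was then compared between mice without PBS (brushed against naive) and mice with PBS (brushed against intact skin with PBS, 8 and 8 mice), in 1 model of 4 groups. Both brushed groups were in pools 4 and 5, naive mice in pools 1, 2 and 5 and intact mice with PBS in pools 1 and 3. Differences between the intact groups enter this test and cannot be told apart from those of brushing. Of 11946 genes, 8 (0.067%) differed. The differences in Dbp were -2.05 without and 0.93 with PBS (interaction -2.98 ± 0.37, adjusted p = 1.49e-05), and in Per3 -1.77 and 0.39 (-2.16 ± 0.37, adjusted p = 0.00303). Tef, Hlf, Nr1d2 and Lyve1 had negative interactions of -1.79, -1.29, -1.63 and -1.71, and Ccr2 and Leo1 positive ones of 0.76 and 0.71. Mean Dbp was 21.0 CPM in brushed skin without PBS against 88.2 CPM in naive skin, and 20.2 CPM in brushed skin with PBS against 10.9 CPM in intact skin with PBS. With pool as covariate Dbp (-2.99, adjusted p = 0.00018) kept its call and the other 7 did not, at values of -1.94 in Lyve1, -1.93 in Per3, -1.68 in Nr1d2, -1.53 in Tef, -1.23 in Hlf, 0.71 in Ccr2 and 0.60 in Leo1.

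Because naive mice shared so little of the pools, the brushed mice were also set against intact skin of pools 4 and 5, the 16 mice that received zinc oxide (nZnO) or silver (nAg) nanoparticles without brushing 7 d before, with pool as covariate. This comparison was added after seeing the data, and the intact mice differ from naive ones by the particles and the application. Of 11878 genes, 553 (4.66%) were called, 333 higher and 220 lower. Against the 8 nZnO mice alone 96 were called, and against the 8 nAg mice alone 393. No clock gene of 16 was called: Dbp differed by 0.53 ± 0.28 (adjusted p = 0.292), Per3 by 0.38 ± 0.26 (adjusted p = 0.428) and Arntl by -0.45 ± 0.15 (adjusted p = 0.0802). These signs are opposite to those against naive skin, and both comparisons share the brushed mice. Lyve1 differed by -0.67 ± 0.28 (adjusted p = 0.156), Cd163 by -0.22 ± 0.17 (adjusted p = 0.487) and Leo1 by 0.09 ± 0.10 (adjusted p = 0.657).

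Monocyte, interferon-stimulated and metalloproteinase genes had calls on the higher side here. Ccr2 rose by 0.65 ± 0.13 (adjusted p = 0.00478), Ccl7 by 0.93 ± 0.23 (adjusted p = 0.0213) and Cxcl10 by 1.50 ± 0.34 (adjusted p = 0.0134). Against nZnO mice alone the calls of Ccl7 (adjusted p = 0.156) and Cxcl10 (1.16, adjusted p = 0.107) were lost, while against nAg mice alone both held and Cxcl10 differed by 1.96. Monocyte and macrophage genes were higher in 13 of 22 (median 0.53), interferon-stimulated genes in 14 of 22 (median 0.97) and metalloproteinases and inhibitors in 6 of 15 (median 0.43), beside a median of -0.0042 over all genes. Against nZnO mice alone Gbp3, Ifi47, Ifit2 and Rtp4 also lost their calls (edgeR adjusted p = 0.140, 0.163, 0.120 and 0.166). Their log2 differences there were 0.90, 0.83, 1.21 and 0.89, and against nAg mice alone all were called. Iigp1, Cxcl9, Ms4a4c and Ccl2 lost theirs too against nZnO mice alone, whereas Ccr2 (adjusted p = 0.0255) and Mmp3 (adjusted p = 0.0396) kept theirs. Serpinb12 rose by 1.36 ± 0.18 (adjusted p = 8.64e-05), with 65.5 to 101 CPM in brushed mice, 21.4 to 47.6 CPM with nZnO and 5.81 to 50.5 CPM with nAg. Spink7 rose by 2.60 ± 0.42 (adjusted p = 0.00103) and Il36a by 0.61 ± 0.14 (adjusted p = 0.0165), the last not called against nZnO mice alone (adjusted p = 0.123). Few genes of the keratinocyte lists were called: of 16 wound keratinocyte genes 2 were higher (median 0.38), of 31 genes of the cornified layer 1 was higher (median -0.10), of 14 suprabasal genes 2 were lower and none higher, and of 10 basal genes none was called. Cthrc1 rose by 1.85 ± 0.23 (adjusted p = 8.64e-05), with 60.6 to 218 CPM in brushed mice, 9.46 to 74.9 CPM with nZnO and 17.4 to 77.4 CPM with nAg, and Prss35 by 2.27 ± 0.35 (adjusted p = 0.000621). Matrix genes that were not called against naive skin were called here, among them Tnc (0.92 ± 0.13), Postn (0.65 ± 0.10), Mmp13 (1.08 ± 0.14) and Mmp11 (1.35 ± 0.18), chosen after their values were seen. Skeletal muscle genes were lower in 18 of 20 (median -2.04) and hair cortex keratins in 5 of 10. The part of muscle and hair tissue in these results was not tested.

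**Figure D4:**
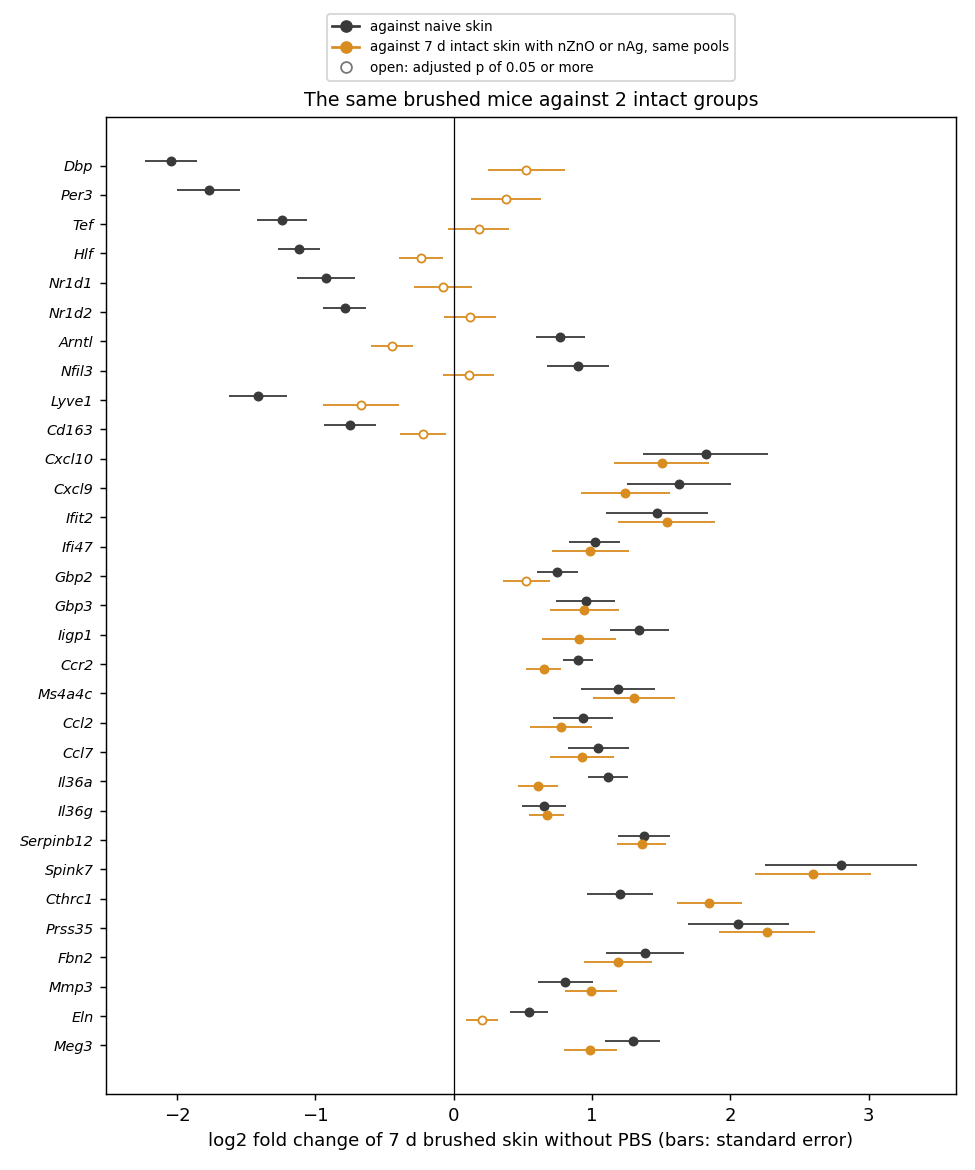
Log2 difference (± SE) of 31 genes between the 7 d brushed mice and naive mice, and between the same brushed mice and intact mice with nZnO or nAg of the same pools, with open symbols for an adjusted p of 0.05 or more. Clock genes are at or near 0 or of the opposite sign in the second comparison (Dbp 0.53 beside -2.05), while Serpinb12 is at 1.36 beside 1.37 and Cthrc1 at 1.85 beside 1.20.

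Group means of the repair genes are set side by side across conditions. Prss35 had a mean of 24.1 ± 16.6 CPM in the 7 d brushed mice without PBS and 13.2 ± 10.7 CPM with PBS (SD, n = 8 each), 3.13 CPM at 24 h after brushing, 6.10 CPM in intact skin with PBS and 5.89 CPM in naive skin. Cthrc1 had means of 151 CPM without and 83.4 CPM with PBS at 7 d after brushing, 50.1 CPM at 24 h and 64.6 CPM in naive skin. For Lyve1 the mean was 15.5 CPM in the brushed group, 25.5 CPM in the brushed group with PBS, 19.4 CPM in intact skin with PBS and 42.0 CPM in naive skin.

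**Figure D5:**
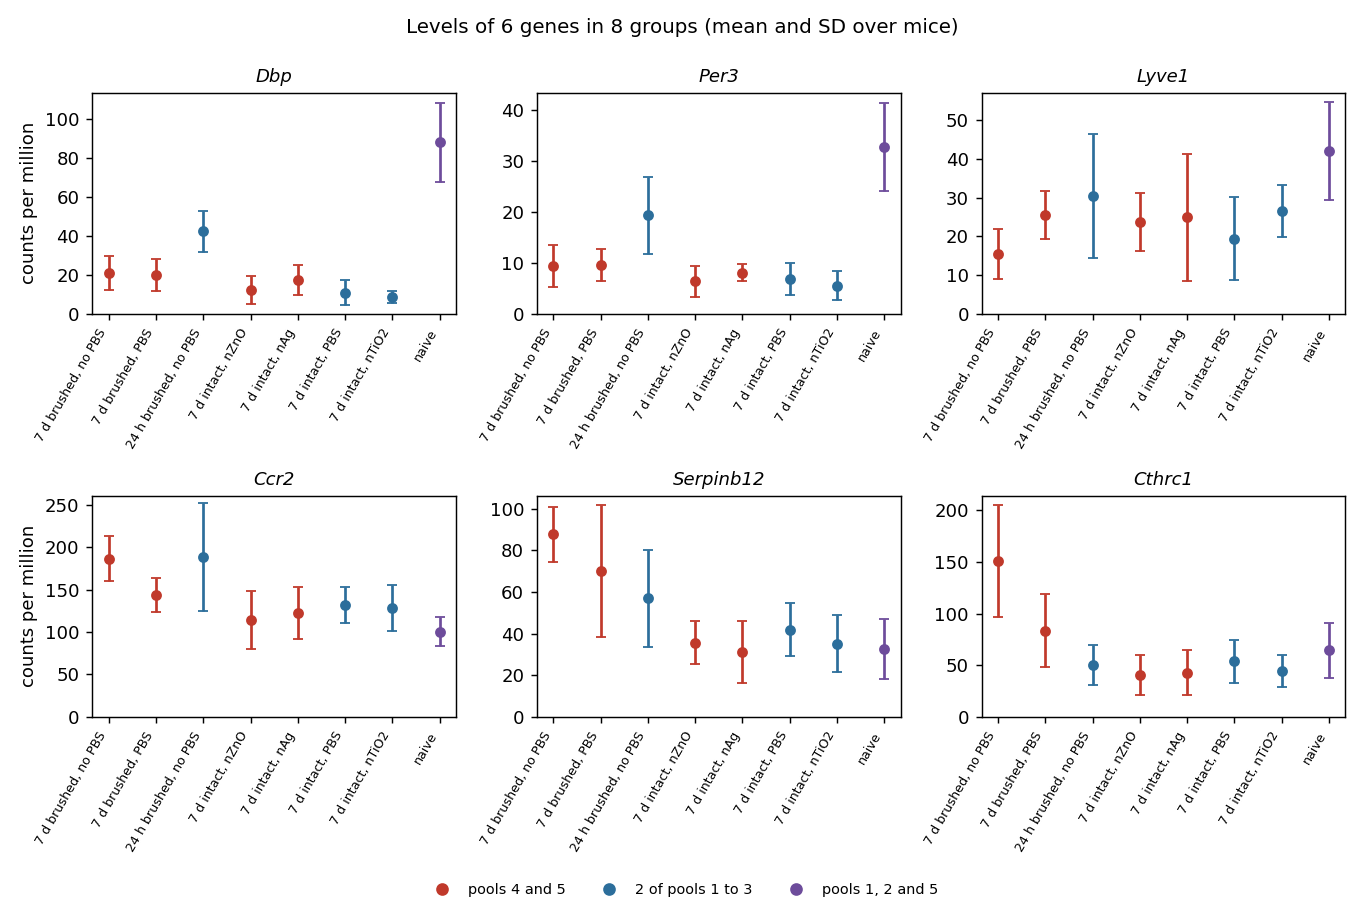
Mean normalised counts (CPM, bars ± SD) of Dbp, Per3, Lyve1, Ccr2, Serpinb12 and Cthrc1 in 8 groups, coloured by sequencing pools. The 7 d brushed mice have a Dbp mean of 21.0 CPM against 88.2 CPM in naive skin, the highest of these groups. The 7 d brushed mice without PBS have a Cthrc1 mean of 151 CPM against 64.6 CPM in naive skin.

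The 1 naive mouse of pool 5 was placed between the groups for the genes called without it. It lay nearer the brushed than the naive mean in 10 of 68 genes (14.7%). The other 8 naive mice, each placed for the genes called without it, did so in 12.5% (mouse 4) to 59.5% (mouse 5, 160 of 269 genes). In that mouse of pool 5 Dbp was 100 CPM, Per3 51.6 CPM, Ccr2 69.1 CPM, Il36a 44.4 CPM and Serpinb12 21.7 CPM, each outside the range of the brushed mice. In Baiap2l1 (6.19 CPM) it was within that range. It is a single mouse, and no spread can be given for naive skin in pool 5.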

How the data were processed

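Bulk 3′ RNA-seq of mouse back skin was analysed. The deposited values are raw UMI counts per gene: per the labels and methods, the authors trimmed reads with Trimmomatic, aligned them with STAR to GRCm39 and counted molecules with Drop-seq tools. A deposited sheet gives each mouse's pool number and an RNA integrity score, used as the authors gave them. GEO samples are pools, so groups come from that table's mouse names.

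Counts were fitted with edgeR 4.0.16 (R 4.3.3; TMM, quasi-likelihood) on the 8 brushed and 9 naive mice, with genes over 5 UMI in 6 of 8 or 7 of 9 mice. P-values were Benjamini-Hochberg adjusted over all genes tested. CPM are TMM-scaled. The 36716 genes of the table include 11423 tested. P-values measure the spread between mice.

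Genes named in the text were, among called genes averaging 10 CPM or more, the 15 that rose most and the 15 that fell most, the 3 members of each of 51 lists with the smallest p, genes the study names at 7 d and skin identity genes; others are marked. Members and lists were chosen with earlier results of these data known. DESeq2 1.42.0, limma 3.58.1 (voom), other filters, pool terms and mice left out were alternatives. The edgeR fit and calling rule for brushed against naive mice were tested on simulated counts without pool effects. Positions come from Gencode models on GRCm39, matched for 271 of 277 genes. 1 intact nZnO mouse has a treatment entry that names scratching, and it was kept.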

Additional observations from a re-analysis of the deposited data

Results flagged for a closer look

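In 8 of 132 tests for a mouse far from its group, 1 value stood apart, 4 in brushed and 4 in naive mice; chance gives about 1 in 20. Brushed mouse 5 had 141 CPM of Klf9 (next 94.8), brushed mouse 4 had 109 CPM of Gbp2 (next 72.5), brushed mouse 8 had 38.9 CPM of Cmpk2 (next 20.2) and brushed mouse 6 had 247 CPM of Ccr2 (next 199). Naive mouse 5 had 46.9 CPM of Cxcl10 (next 18.6) and 65.4 CPM of Serpinb12 (next 40.8), naive mouse 9 had 51.6 CPM of Per3 (next 36.1) and naive mouse 4 had 48.7 CPM of Trarg1 (next 27.4).

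In 8 genes the difference between brushed and intact skin at 7 d was not the same without PBS as with PBS by a test of the interaction (edgeR). The interaction was -2.98 in Dbp, -1.63 in Nr1d2, -2.16 in Per3, -1.29 in Hlf, -1.71 in Lyve1, -1.79 in Tef, 0.71 in Leo1 and 0.76 in Ccr2, on the log2 scale. The intact groups enter this test too: mean Dbp was 88.2 CPM in naive skin and 10.9 CPM in intact skin with PBS. With pool as covariate Dbp kept its call and the others did not. Without the naive mouse that shares pool 5 all 8 stayed under an adjusted p of 0.05.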

How the results depend on the processing

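Of the 141 calls against naive skin, DESeq2 (198 calls) shared 132, edgeR with other size factors (144) 141, no low-count filter (187) 120 and 1 fit of all 19 groups (141) 91. When the count filter had to be met in both groups, 10694 genes were tested and 106 called, all among the 141. Of 50 called genes followed in the text, 41 met that filter and 36 kept the call. Spink7, Prss35, Fbn2, Gbp2b, Gm49839 and Prkg2 did not meet it. The count was 263 with voom, 331 at an adjusted p under 0.1, 68 without naive mouse 9, 164 with the 5 brushed mice of pool 4 alone and 4 with the 3 of pool 5 alone. It was 3 in the fit of all groups with pool as covariate, 0 with pool in the fit of the 17 mice, and 553 against intact skin of the same pools. Leaving out 1 mouse gave 41 to 269.

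Deposited replicate numbers showed no pairing of mice over all genes tested. Over 8 pairs the correlations of deviations were -0.187 to 0.0848, none over 0.1 and none highest with its own number. A pairing that touches few genes would not show in these correlations. A replicate block, added after seeing the data like the comparisons with intact skin and with single pools, left 25 calls.

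Signs turned against intact skin of the same pools in Dbp (0.53), Per3 (0.38), Tef (0.18), Nr1d2 (0.12), Arntl (-0.45) and Cebpb (0.34). In the fit of all groups with pool they turned in Baiap2l1 (0.86), Cebpb (0.0585), Ndufb8 (0.0206) and Rab5if (0.0067). With pool in the fit of 17 mice they turned in Baiap2l1 (0.21), Cebpb (0.22), Ndufb8 (0.13) and Rab5if (0.0479), and with pool 5 alone in Cebpb (0.36) and Ndufb8 (0.0140). The cause was not tested.

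For 7 d against 24 h DESeq2 called 317 genes and leaving out a mouse 76 to 194; a pool covariate could not be fitted, since the groups share no pool. Against brushed skin with PBS DESeq2 called 2. The interaction had 2 calls with pool and 8 to 9 without a mouse. Depth, 613961 UMI in the shallowest brushed library, limits genes of a few CPM, such as Spink7 in naive mice.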

Other observations

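An intact nZnO mouse at 7 d carries a treatment entry that names scratching. Over 529 genes called between the 7 d brushed mice and the intact mice of the same pools without it, it lay nearer the brushed mean in 107, with a median position of 0.069 on a scale from intact to brushed, and the other nZnO mice had medians from -0.41 to 0.50. Without it 529 genes were called, against 553 with it.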
